A study of Mus musculus with 4 samples.

Results

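The transcripts described are those of 10 haploid spermatid genes, read in RNA from preparations of largely meiotic cells: Prm1, Prm2, Tnp1, Tnp2, Odf1, Tssk1, Tssk2, Tssk3, Tssk6 and Acrv1. They were taken by symbol, and all 10 had a row of their own among the 37718 gene rows of the count tables. The question was how much haploid-stage RNA each preparation held, and whether it differed with the genotype. The study sequenced rRNA-depleted total RNA of 4 samples of testis cells from mice at 20 days post partum (dpp), 2 samples labelled Tdrd6+/- and 2 labelled Tdrd6-/-. Cells of both genotypes carried human CD4 (hCD4) under the endogenous Tdrd6 promoter and were isolated on anti-hCD4 magnetic beads, each sample being a pool of at least 4 mice. The study describes the product as largely diplotene spermatocytes, the late prophase I cells in which the chromosomes begin to separate. The Tdrd6+/- controls therefore also carried the changed Tdrd6 allele, and Tdrd6 is known to be expressed in round spermatids as well as in spermatocytes.

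Protamines (Prm1, Prm2) and transition proteins (Tnp1, Tnp2) replace the histones when spermatid nuclei condense. Odf1 belongs to the outer dense fibres of the sperm tail, the Tssk kinases act in late spermiogenesis, and Acrv1 is a protein of the acrosome. These genes are known for transcription after meiosis, largely under the activator CREM, and many of their mRNAs are stored before translation. In the mouse the first round spermatids appear at about the age sampled, so haploid transcripts at this age may lie in spermatocytes or in the first spermatids. In hCD4-positive preparations of this age, the study counted diplotene cells, secondary spermatocytes and round spermatids. It reported no significant difference in these shares between the genotypes. The paper does not say whether the sequenced pools were among those counted. In bulk RNA, fewer cells of a type and less RNA per cell cannot be told apart.

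The 4 samples held between 26454326 and 31388750 gene counts, and intron counts made up between 21.9% (Tdrd6-/- replicate 2) and 31.0% (Tdrd6+/- replicate 1) of all tallied fragments. Tdrd6 itself was counted 33220 and 39322 times in Tdrd6+/- and 359 and 400 times in Tdrd6-/-, as the labels say. Over the whole table, 169 of 16555 genes tested (1.02%) were higher and 625 (3.78%) lower in Tdrd6-/- at a false discovery rate of 0.1. The labels do not say whether the replicates came from separate animals, so p-values measure only the spread between these samples, which may be technical.

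The bases just upstream of the transcription start are shown for 5 members, because the group is known for its shared CREM-type control. The 8-base cyclic AMP response element (CRE) TGACGTCA and 2 variants of it, TGACTTCA and TGATGTCA, were searched on both strands in the 250 bases before each start. The variants were picked after the promoters had been read. Capitals mark a match, and the sequences are RefSeq's on GRCm38.p6, written 5′ to 3′ and ending at the base before the start.
Prm1, chr16:10796824-10796943, - strand: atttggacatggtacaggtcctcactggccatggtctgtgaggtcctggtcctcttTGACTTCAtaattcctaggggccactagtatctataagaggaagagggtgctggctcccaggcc
Tnp1, chr1:73015900-73016019, - strand: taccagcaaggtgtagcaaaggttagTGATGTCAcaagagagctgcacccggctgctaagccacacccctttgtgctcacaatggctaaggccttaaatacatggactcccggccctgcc
Tssk1, chr16:17894083-17894202, + strand: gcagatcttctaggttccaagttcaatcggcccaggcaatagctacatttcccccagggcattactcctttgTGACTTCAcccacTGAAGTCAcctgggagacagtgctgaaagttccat
Tssk2, chr16:17898517-17898636, + strand: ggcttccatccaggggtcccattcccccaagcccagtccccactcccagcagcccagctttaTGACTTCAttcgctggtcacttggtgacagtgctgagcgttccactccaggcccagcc
Acrv1, chr9:36693100-36693219, + strand: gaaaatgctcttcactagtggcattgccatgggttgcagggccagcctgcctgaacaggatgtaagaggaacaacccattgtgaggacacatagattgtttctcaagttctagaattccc
The palindrome TGACGTCA was found in none of the 9 members with a RefSeq promoter and in 1.55% of all 32851 promoters. TGACTTCA was found in Prm1, beginning 64 bases before the start, in Tssk2, 58 bases before it, and at 2 places in Tssk1, 48 and 35 bases before it, the nearer one on the opposite strand. It was found in 1.31% of all promoters. TGATGTCA was found in Tnp1, 94 bases before the start, and in 2.93% of all promoters. Acrv1, Prm2, Tnp2, Tssk3 and Tssk6 held none of the 3. These are matches of letters, not measured binding sites.

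By their counts, the transcripts fell into a near-absent set and a low set. The 4 genes of nuclear condensation were near 0 in every sample, and the other 6 genes had between 32.3% and 65.6% of the expressed genes above them. Counts are given as deposited and then as CPM, the depth-scaled count, with TMM factors. Per kilobase of annotated exon the sets met in Tdrd6-/-, with means of 0.684 CPM for Tnp1 and 0.683 CPM for Tssk6. A single count was worth between 0.0312 and 0.0382 CPM, and 0 counts allow a level of up to 0.0937 to 0.115 CPM (3 counts, counting error only).

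Prm1 (protamine 1, chr16:10796326-10805839, minus strand) was counted 0 times in both Tdrd6+/- samples, 0 times in Tdrd6-/- replicate 1 and 4 times in Tdrd6-/- replicate 2. Prm2 (protamine 2, chr16:10791380-10796134, minus strand) was counted 7 and 4 times in Tdrd6+/- and 3 and 7 times in Tdrd6-/-. Tnp2 (transition protein 2, chr16:10787936-10788660, minus strand) was counted 1 and 1 times against 0 and 4 times. The genotypes overlapped for all 3 genes. The ratio of Prm2 in Tdrd6-/- over Tdrd6+/- was 0.772, with an exact 95% interval of 0.294 to 2.00 that covers counting error only.

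Tnp1 (transition protein 1, chr1:73015074-73015909, minus strand) was the exception among the 4. It was counted 0 and 3 times in Tdrd6+/- and 10 and 9 times in Tdrd6-/-, which was 0 and 0.108 CPM against 0.316 and 0.281 CPM. Both Tdrd6-/- samples thus lay above both Tdrd6+/- samples. The depth-scaled ratio of the pooled counts (19 against 3) was 5.38, with a counting interval of 1.58 to 28.4. This interval leaves out the spread between samples, so it does not test the genotype. All 4 genes stood below the minimum count for the test. With that filter left out, none of them was called, with an adjusted p of 0.553 for Tnp1, and no member was.

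**Figure D1:**
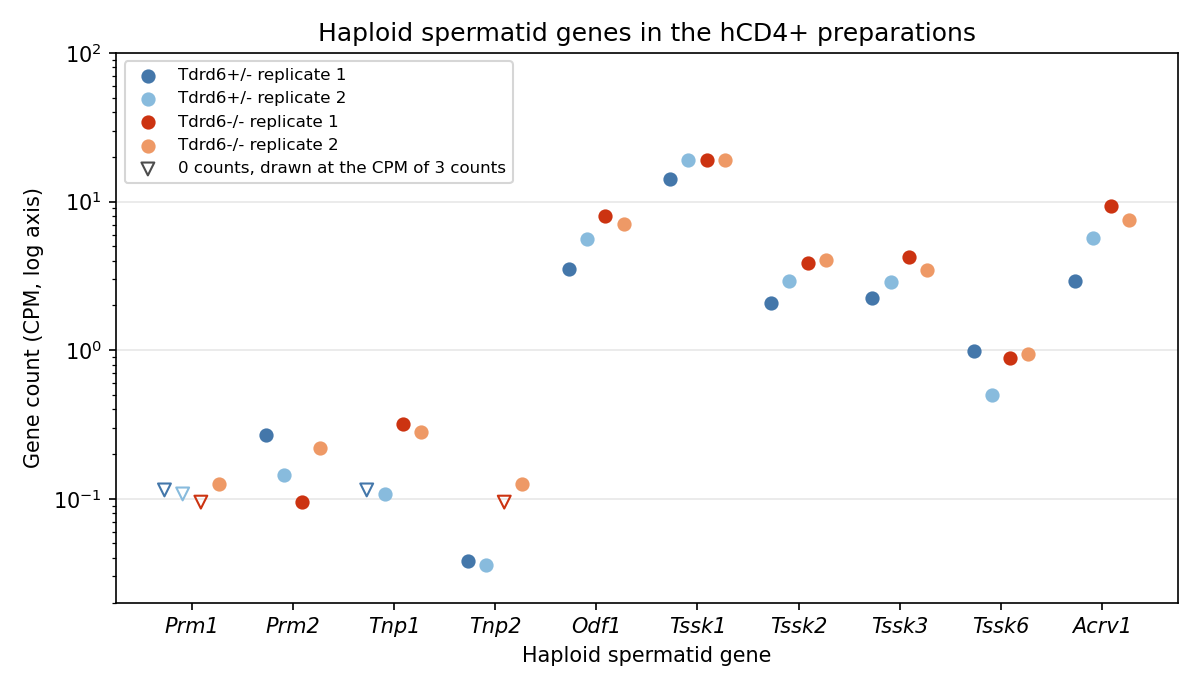
Count of each haploid spermatid gene in each of the 4 samples, in CPM on a log axis; circles are single samples and open triangles mark 0 counts, drawn at the CPM of 3 counts. Prm1, Prm2, Tnp1 and Tnp2 lie below 0.32 CPM in every sample. Odf1, Acrv1, Tssk2, Tssk3 and, on few counts, Tnp1 lie higher in both Tdrd6-/- samples than in both Tdrd6+/- samples. Of all genes tested, 20.1% do.

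Acrv1 (acrosomal vesicle protein 1, also called SP-10, chr9:36693220-36698843, plus strand) was the only member that passed the test. It was counted 77 and 159 times in Tdrd6+/- and 297 and 241 times in Tdrd6-/-, or 2.94 and 5.71 CPM against 9.39 and 7.53 CPM. The groups did not overlap, but Tdrd6+/- replicate 2 was 1.94-fold above replicate 1, a spread about as wide as the 1.96-fold difference between the genotype means. The log2 fold change was 0.96 (SE 0.27), with an adjusted p of 0.0565. The call was lost without Tdrd6+/- replicate 1 (log2 fold change 0.58, adjusted p = 0.415), without Tdrd6-/- replicate 1 (0.80, adjusted p = 0.162), without the filter on low counts (adjusted p = 0.409) and at a false discovery rate of 0.05. Of the 10 other fits tried, 7 called it. The smallest adjusted p, 0.000957, came from a crossed pairing of replicate numbers that was chosen after the data were seen. That fit is 1 of the 7.

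Odf1 (outer dense fibre protein 1, chr15:38219203-38226735, plus strand) was counted 92 and 155 times in Tdrd6+/- and 254 and 226 times in Tdrd6-/-. In CPM this was 3.51 and 5.56 against 8.03 and 7.06. All Tdrd6-/- values were again above all Tdrd6+/- values, and Tdrd6+/- replicate 1 was the lowest sample. The log2 fold change of 0.73 (SE 0.25) did not pass over all genes (adjusted p = 0.142). It passed only without Tdrd6+/- replicate 2 (1.10, adjusted p = 0.0450) and with one pairing added after the data were seen; over the 10 other fits the adjusted p ran from 0.0295 to 0.582.

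The Tssk genes encode testis-specific serine kinases, and Tssk1 and Tssk2 are neighbouring paralogues on chromosome 16, so that reads shared between them are a possible source of error. Tssk1 (chr16:17894223-17897922, plus strand) was the most counted member, with 372 and 532 counts in Tdrd6+/- and 605 and 609 in Tdrd6-/-. Its CPM of 14.2 and 19.1 against 19.1 and 19.0 placed Tdrd6+/- replicate 2 level with the Tdrd6-/- samples and left replicate 1 alone below. The log2 fold change was 0.20 (SE 0.19, adjusted p = 0.734).

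Tssk2 (chr16:17898637-17900024, plus strand) gave 54 and 81 counts in Tdrd6+/- and 122 and 130 in Tdrd6-/-, or 2.06 and 2.91 CPM against 3.86 and 4.06 CPM. Tssk3 (chr4:129489014-129491022, minus strand) gave 59 and 80 counts against 133 and 111, or 2.25 and 2.87 CPM against 4.21 and 3.47 CPM. Neither gene overlapped between genotypes. Their log2 fold changes of 0.67 (SE 0.28, adjusted p = 0.261) for Tssk2 and 0.58 (SE 0.28, adjusted p = 0.357) for Tssk3 did not pass in any of the 10 other fits.

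Tssk6 (chr8:69902184-69903518, plus strand) was the lowest of the tested members, with 26 and 14 counts in Tdrd6+/- and 28 and 30 in Tdrd6-/-. Here Tdrd6+/- replicate 1 (0.993 CPM) was the highest sample and replicate 2 (0.503 CPM) the lowest, with both Tdrd6-/- samples (0.885 and 0.937 CPM) between them. The log2 fold change of 0.29 (SE 0.43, adjusted p = 0.848) turned to -0.12 without Tdrd6+/- replicate 2.

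Of the members, 1 of the 6 tested genes was called higher in Tdrd6-/-, where 1.02% of all genes tested were, and none was called lower, where 3.78% were. At an unadjusted p under 0.05, 3 of the 6 passed, where 14.0% of all genes tested did. CPM of both Tdrd6-/- samples exceeded CPM of both Tdrd6+/- samples for 4 of the 6, where this was so for 20.1% of all genes tested. The median log2 fold change of the 6 was 0.63, against 0.01 for all genes tested. These 6 are the members with enough counts, not the whole set, and the filter can favour a gene that is high in 1 genotype. The median of all genes was 0.03 with DESeq2 size factors and 0.07 with upper quartile factors, and the 6 fold changes stayed positive with DESeq2 size factors and with upper quartile factors.

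Summed over the 10 members, the level was 26.3 and 36.9 CPM in Tdrd6+/- and 45.9 and 42.8 CPM in Tdrd6-/-, with 8, 9, 8 and 10 members having at least 1 count. In this sum the Tdrd6+/- samples differed from each other more than the Tdrd6-/- samples did. Tdrd6+/- replicate 2 exceeded replicate 1 by 1.58-fold for Odf1, 1.41-fold for Tssk2, 1.34-fold for Tssk1 and 1.27-fold for Tssk3, while for Tssk6 it was at 0.506 of replicate 1. The sparse counts of Prm1 and Tnp2 spread more between the Tdrd6-/- samples. Those of Prm2 spread alike in both genotypes (SD 0.0875 CPM in Tdrd6+/- and 0.0876 CPM in Tdrd6-/-). The replicate with the lowest sum, Tdrd6+/- replicate 1, was also the one with the highest intron share of the library, and the part of that difference in these values was not tested.

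Levels were compared between genes per kilobase (kb) of annotated exon. On this scale the order was Odf1 (5.47 ± 1.78 CPM per kb, SD, n = 4 over both genotypes), Tssk1 (4.83 ± 0.660), Tssk3 (2.50 ± 0.652), Tssk2 (2.32 ± 0.665), Acrv1 (1.75 ± 0.754) and Tssk6 (0.621 ± 0.167). Tnp1 (0.403 ± 0.340), Prm2 (0.203 ± 0.0859), Tnp2 (0.0898 ± 0.0959) and Prm1 (0.0547 ± 0.109) followed. The order of Odf1 and Tssk1 changed from sample to sample, as did that of Tssk3 and Tssk2, Tssk6 and Tnp1, and Tnp1 and Prm2. On this exon length Acrv1 lay below both Tssk3 and Tssk2 in all 4 samples. Its values were 0.806 and 1.57 in Tdrd6+/- and 2.58 and 2.07 in Tdrd6-/-. Tnp2 and Prm1, with at most 4 counts in a sample, were too sparse to be ordered. The order differed between genotypes: Tssk1 (4.50 ± 0.935, SD, n = 2) stood level with Odf1 (4.11 ± 1.31) in Tdrd6+/-, while Odf1 (6.83 ± 0.621) was above Tssk1 (5.16 ± 0.0198) in Tdrd6-/-. Tnp1 was at 0.123 ± 0.174, beside 0.230 ± 0.0979 for Prm2, in Tdrd6+/-, and at 0.684 ± 0.0567, beside 0.683 ± 0.0275 for Tssk6, in Tdrd6-/-. The place of Acrv1 depends on the exons counted as its length: with the RefSeq transcript of 1101 bases in place of 3647 annotated exon bases, it was 5.81 ± 2.50 CPM per kb. Among 18827 genes with at least 10 counts, 32.3% were above Odf1, 34.2% above Tssk1, 65.6% above Tssk6, 71.4% above Tnp1 and 80.7% above Prm2.

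The spliced state of the transcripts was read from their exon segments, junctions and introns. The deposited annotation splits the members into 22 exon segments, 9 annotated junctions and 8 introns. All 22 exon segments and all 9 junctions had at least 1 count, and 4 of the 8 introns had. The 4 introns without a count were those of Prm1, Prm2, Tnp1 and Tnp2, while the junctions of these genes were crossed. The Tnp1 junction was counted 0, 2, 3 and 4 times in Tdrd6+/- replicates 1 and 2 and Tdrd6-/- replicates 1 and 2, and that of Prm2 was counted 2, 1, 2 and 0 times. The Tnp2 junction was counted 1, 0, 0 and 2 times and that of Prm1 only in Tdrd6-/- replicate 2, 2 times. The few counts of these genes thus included spliced transcripts in at least 1 sample of each.

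Odf1, which has a single intron, had 22 and 33 intron counts in Tdrd6+/- and 41 and 32 in Tdrd6-/-. Set against the gene's own exons, intron counts per kb were 4.11% and 3.66% of exon counts per kb in Tdrd6+/- and 2.78% and 2.43% in Tdrd6-/-. Over 7707 genes with matching intron numbers the median was 10.4%, and 12.2% of them were below Odf1. Its junction was counted 24 and 28 times in Tdrd6+/- and 30 and 38 times in Tdrd6-/-, or 26.1% and 18.1% of the gene's counts against 11.8% and 16.8%, with too few counts for the usage test.

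Tssk3 had 3 and 10 intron counts in Tdrd6+/- and 20 and 12 in Tdrd6-/-, an intron density of 8.93% and 21.95% against 26.4% and 19.0% of exons, and 73.3% of the 7707 genes were below its mean of 19.1%. In Acrv1, both introns together gave 19 and 28 counts against 72 and 58, or an intron density of 45.5% and 32.5% against 44.7% and 44.4%. Of the 7707 genes, 92.7% were below its mean of 41.8%, a density that takes all 3647 annotated exon bases as its length. With the RefSeq transcript of 1101 bases as its length the density would be lower, and its place among the genes was not computed. The genotypes overlapped in both genes. The larger part in Acrv1 came from the second of its 2 introns, with 15 and 23 counts against 64 and 49. Tssk1, Tssk2 and Tssk6 have 1 exon and no intron, so their splicing cannot be measured.

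Of the members' features, 17 exon segments, 5 junctions and 4 introns had at least 10 counts. Usage is a feature's count relative to the rest of its gene, so the single segments of Tssk1, Tssk2 and Tssk6 could not be fitted, which left 19 exon segments and junctions and 4 introns. Only 3 exon segments, 2 of Odf1 and 1 of Acrv1, passed the filter on the mean count, and none was called (adjusted p = 1 for each, DESeq2 likelihood ratio test). Over all features, 0.221% of 147710 exon segments and junctions and 4.25% of 29816 introns were called. Of the 3, the first segment of Odf1 had the smallest unadjusted p, with a log2 change of -0.34 (SE 0.30). No intron of a member passed the filter, and at an unadjusted p under 0.05 no intron and 1 exon segment, the second of Prm2 with 17 counts in all, was seen. The other fitted features were below this filter.

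The level of these genes is set here beside those of lists of genes from the same and other cell types. In this preparation the markers of pachytene and diplotene spermatocytes were high, with a median of 177 CPM per kb over 14 genes with a row of their own and none at 0. The median of the 10 haploid genes was 1.19 CPM per kb. Genes of spermatogonia and early meiosis had a median of 1.11 CPM per kb over 10 genes, and markers of Sertoli, Leydig, peritubular and blood cells 0.702 CPM per kb over 11 genes. On means of the 4 samples, the haploid median thus lay within a factor of 2 of both. By sample it was 0.775 and 0.971 CPM per kb in Tdrd6+/- and 1.65 and 1.38 in Tdrd6-/-. The median of spermatogonia and early meiosis was 0.846 and 0.908 against 1.14 and 1.59. That of Sertoli, Leydig, peritubular and blood cells was 0.717 and 0.719 against 0.691 and 0.840. The summed level of the markers of Sertoli, Leydig, peritubular and blood cells was 52.2 and 47.4 CPM in Tdrd6+/- and 58.7 and 49.8 CPM in Tdrd6-/-, and none of the 11 was called; Cldn11, a tight junction protein of Sertoli cells, had the highest level per kb, 5.77 CPM per kb (log2 fold change 0.40, adjusted p = 0.415), and Wt1 the next, 3.52 CPM per kb (0.11, adjusted p = 0.874).

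**Figure D2:**
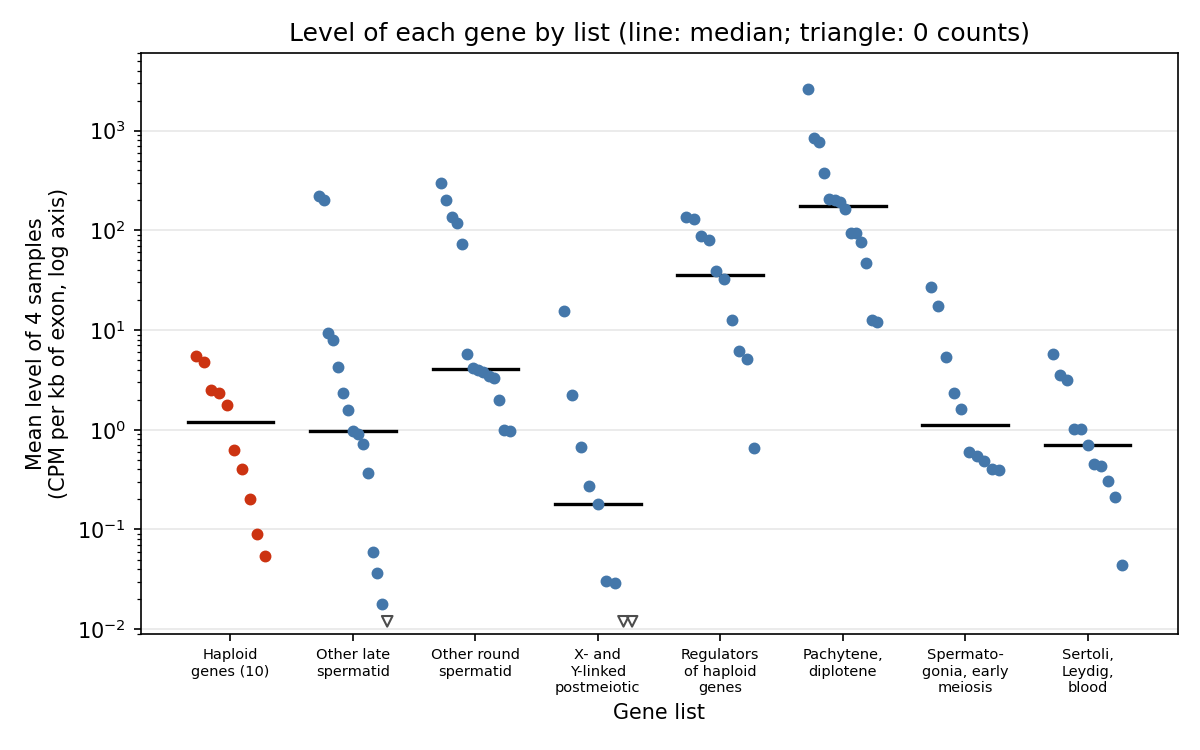
Mean level of each gene over the 4 samples, in CPM per kb of annotated exon on a log axis, by list; horizontal lines are list medians and triangles are genes with 0 counts. The 10 haploid genes (red) have a median of 1.19, against 177 for pachytene and diplotene markers and 0.702 for Sertoli, Leydig, peritubular and blood cell markers.

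Of the other late spermatid genes, Hils1 and Tex33 were higher in Tdrd6-/-. Of 15 genes, 11 were tested, and the rest had too few counts for the test. All 11 had a positive log2 fold change (median 0.57), as did 8554 of all 16555 genes tested. Of the 11, 2 were called higher and none lower, where 1.02% and 3.78% of all genes tested were. Hils1, a spermatid-specific linker histone, was at 1.72 and 2.37 CPM in Tdrd6+/- and 5.28 and 5.34 CPM in Tdrd6-/- (log2 fold change 1.37, SE 0.28, adjusted p = 0.00570), a call lost without the filter alone among 10 other fits (adjusted p = 0.136, range from 2.89e-05). Tex33 was at 5.23 and 8.11 CPM against 13.9 and 12.6 CPM (0.99, SE 0.23, adjusted p = 0.0171). Spem1 was at 0 in all samples, and Odf2 and Tekt1, named after their values were seen, were the most abundant, at 201 and 223 CPM per kb. Their log2 fold changes were 0.13 and 0.27, and neither was called.

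Of the other round spermatid genes, Spaca1 and Actl7a, both of the acrosome, were higher in Tdrd6-/-. Of 17 genes, 14 had a row of their own and all 14 were tested, 12 with a positive log2 fold change (median 0.51). Of the 14, 2 were called higher and none lower, where 1.02% and 3.78% of all genes tested were. The list was mixed, and its most abundant genes per kb, named after their values were seen, were not called. These were Spata16, Zpbp2 and Dpy19l2, at 301.4, 199.7 and 136.5 CPM per kb, with log2 fold changes of 0.15, 0.15 and -0.05. The summed level of the list was 1753 and 2037 CPM in Tdrd6+/- and 1978 and 2078 CPM in Tdrd6-/-. Spaca1, a membrane protein of the acrosome, was at 5.96 and 7.11 CPM in Tdrd6+/- and 11.9 and 11.4 CPM in Tdrd6-/- (0.83, SE 0.22, adjusted p = 0.0359). Actl7a, an actin-like protein of the acrosomal region, was at 3.13 and 5.03 CPM against 8.32 and 7.56 CPM (0.96, SE 0.26, adjusted p = 0.0401). Without Tdrd6+/- replicate 1, 1 late spermatid gene, Hils1, and no round spermatid gene was called; without Tdrd6-/- replicate 1 or 2, 1 round spermatid gene was, and without the filter on low counts no gene of either list was.

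Of the X-linked and Y-linked postmeiotic genes, 4 of 9 with a row were tested and none was called. Tsga8 was at 10.8 and 16.1 CPM in Tdrd6+/- and 17.9 and 22.3 CPM in Tdrd6-/- (0.58, adjusted p = 0.155), and Akap4, of the sperm tail's fibrous sheath, at 3.97 and 7.32 CPM against 8.82 and 6.72 CPM (0.46, adjusted p = 0.485). Ssty1 and Ssty2, of the Y chromosome, were at 0 counts in all samples. The treatment of reads shared by similar genes is not given, so 0 counts need not mean that no transcript was present. All lists were described by their counts and medians alone, beside a median of 0.01 for all genes tested.

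The regulators of haploid transcription had a median of 35.8 CPM per kb over 10 genes, above the 1.19 of the members. Sox30, a transcription factor of late meiosis and round spermatids, was called lower in Tdrd6-/-, at 32.6 and 28.8 CPM against 40.7 and 48.5 CPM (log2 fold change -0.54, SE 0.16, adjusted p = 0.0671). It was called in 5 of 10 other fits, and not with upper quartile scaling, without the filter, or without Tdrd6+/- replicate 2 or either Tdrd6-/- replicate (adjusted p from 0.0308 to 0.648). Crem, named after its values were seen, was counted 4860 and 5336 times in Tdrd6+/- and 5932 and 6610 times in Tdrd6-/- (log2 fold change 0.06, adjusted p = 0.896). The median log2 fold change of the 10 was -0.17, and 4 of them had a positive one. Sox30 was the only one of the 10 called, where 3.78% of all genes tested were called lower.

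Among 14 pachytene and diplotene genes with rows of their own, 1 was called higher and 2 lower, where 1.02% and 3.78% of all genes tested were. The median log2 fold change of the 14 was 0.10. Clgn, a chaperone of the endoplasmic reticulum in spermatocytes, was at 932 and 965 CPM in Tdrd6+/- and 614 and 557 CPM in Tdrd6-/- (-0.70, SE 0.13, adjusted p = 0.00269), a call lost only without the filter among 10 other fits (adjusted p = 0.103, range from 6.57e-06). Piwil1, the piRNA-binding protein MIWI, was at 1105 and 928 CPM against 732 and 765 CPM (-0.44, adjusted p = 0.0773). It was called in 5 of 10 other fits, and not with upper quartile scaling, without the filter, or without Tdrd6+/- replicate 1 or either Tdrd6-/- replicate (adjusted p from 0.0188 to 0.384). Sycp1, of the synaptonemal complex, was higher (0.60, adjusted p = 0.0467), at 161 and 102 CPM against 186 and 214 CPM, and lost its call without the filter and without Tdrd6+/- replicate 2 or Tdrd6-/- replicate 2 (adjusted p up to 0.429). None of the 10 genes of spermatogonia and early meiosis was called, with Spo11 at a log2 fold change of -0.06 (adjusted p = 0.912) and Id4 at -0.09 (adjusted p = 0.872).

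**Figure D3:**
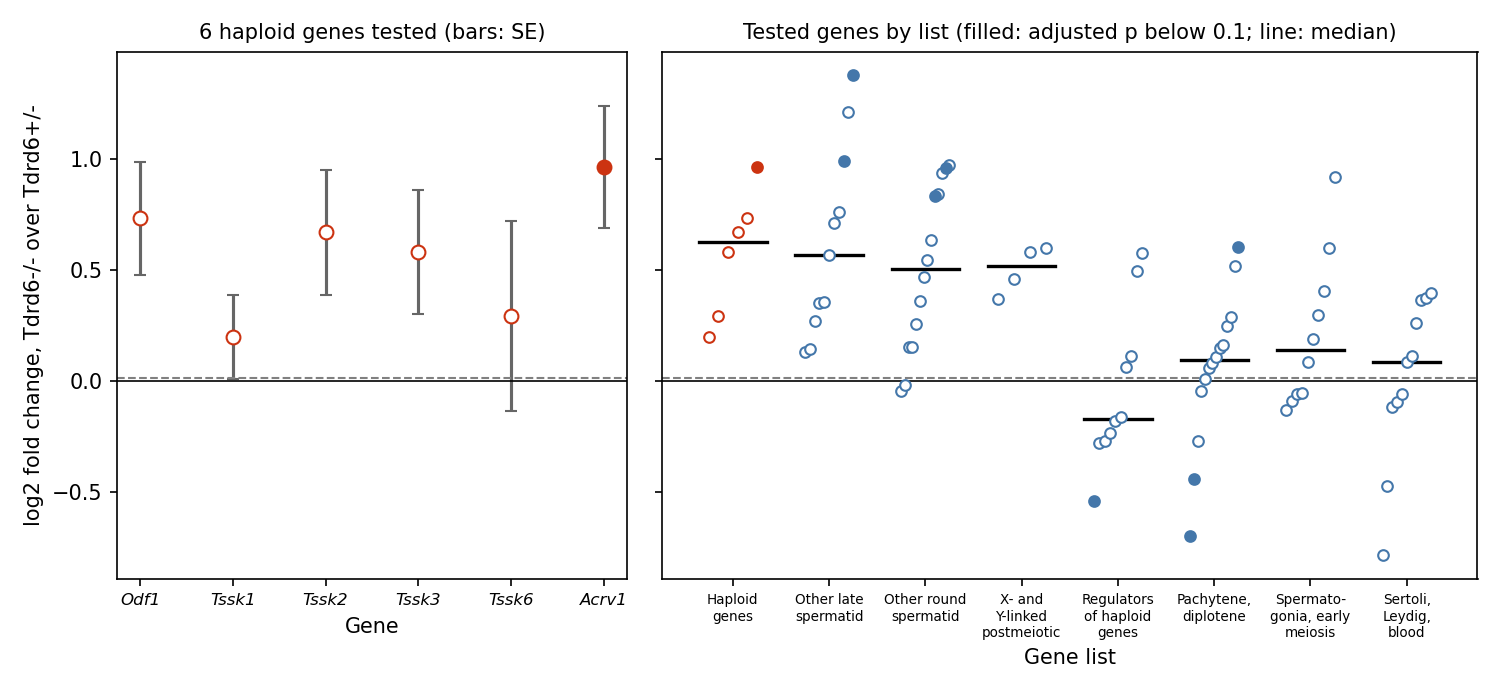
Log2 fold changes of Tdrd6-/- over Tdrd6+/- from edgeR's quasi-likelihood fit, for the 6 haploid genes tested (left, bars are standard errors) and for the tested genes of each list (right, lines are list medians); filled points have an adjusted p below 0.1 and the dashed line is the median of all genes tested, 0.01. The haploid, late and round spermatid lists have medians of 0.63, 0.57 and 0.51.

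The mean profile of the 8 members with at least 10 counts, centred on the log2 CPM scale, was -0.35 and -0.10 in Tdrd6+/- and 0.25 and 0.20 in Tdrd6-/-. Of 8092 other genes with a mean of at least 10 CPM, Dgat2, Col18a1, Zfa-ps, Glb1l3 and Colgalt1 were nearest to it, with root mean square distances of 0.0307 to 0.0419 over 4 samples. Their log2 fold changes lay between 0.44 and 0.48, and none was called (adjusted p from 0.159 to 0.290).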

How the data were processed

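Fragments were counted by the authors per gene, exon segment, splice junction and intron, after alignment to mouse mm10 (GRCm38) with GSNAP and annotation with Ensembl models; the deposited values are raw, unnormalized counts. The submitters' processing notes name bcl2fastq 1.8.4. The treatment of reads shared by paralogues and the strand setting are not given in the sources used here. Gene rows that join several overlapping genes (940 of 37718) stayed in the main fit but were not counted as list genes. Members and lists were chosen with earlier results of these data known.

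Genes were tested with edgeR 4.0.16 in R 4.3.3 (TMM, filterByExpr, quasi-likelihood test, genotype alone, Benjamini-Hochberg over all genes tested, false discovery rate 0.1). Usage of exon segments, junctions and introns with at least 10 counts was tested with a DESeq2 1.42.0 likelihood ratio test in DEXSeq form (the study used JunctionSeq for exons and junctions, which was not run here), an intron being set against its gene's count. Members that failed the filter were fitted only in the alternative without it. CPM are TMM-scaled, CPM per kb use exon bases of GENCODE M21, and centred log2 CPM used a pseudocount of 0.5. Coordinates are those of GENCODE M21 on GRCm38, and promoters those of RefSeq for 9 of 10 members (not Odf1). All tests were checked on simulated data, drawn with 1 fixed dispersion that was not fitted to these replicates. At a log2 change of 1, they recovered 88.5% of changed genes, 21% of exon segments and junctions and 42% of introns. At a log2 change of 2 the shares were 100%, 86.5% and 98.5%, and false calls ran from 7.4% to 12.5%. The changed features had higher mean counts than any tested member segment, so the lack of a usage call among members says little. The changed genes had higher mean counts than Tssk6 and the members below the filter. The 88.5% therefore does not give the share that would be recovered among the members. Replicates of a genotype differed beyond sampling noise (chi-square per degree of freedom 20.3 and 17.8).

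Named genes were all members; of each list those called, up to 4 by adjusted p, or else the 2 highest per kb; the tested member feature with the smallest p; and the 5 genes nearest the mean profile. Alternatives were DESeq2, upper quartile factors, no filter, joined rows left out, a replicate block, a false discovery rate of 0.05, other references for usage, and each library left out. A crossed pairing of the replicate numbers was added after the data were seen. Counting intervals are exact.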

Additional observations from a re-analysis of the deposited data

How the results depend on the processing

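Low counts kept the 4 genes of nuclear condensation out of the test, and 2 samples a genotype limit the rest. The total of genes called, 794, was 75 without the filter on low counts, and between 257 (without Tdrd6-/- replicate 2) and 1064 with 1 library left out. Called members, 1 of 6, were 0 without the filter and at a false discovery rate of 0.05, and 0 to 2 with 1 library left out. Other late spermatid genes called higher, 2, were 0 without the filter and 1 to 3 with 1 library left out, and other round spermatid genes, 2, were 0 without it and 0 to 3. The log2 fold change of Tssk6 ran from -0.12 (without Tdrd6+/- replicate 2) to 0.87 (without Tdrd6+/- replicate 1). Exon and junction events, 327, were 80 with edgeR and 51 to 763 with 1 library left out, and called introns, 1266, were 748 at a false discovery rate of 0.05, 561 against the other introns and 38 to 1439 with 1 library left out; no member feature was called in any of these. The members' summed level, 18.2 CPM per kb, was 37.99 as CPM without length and 16.8 to 20.3 with 1 library left out. The replicate numbers are not stated to pair the samples, and same-numbered samples did not deviate together (correlation -0.11). With the number as a replicate block, 1046 genes were called, 1 of them a member, with 306 exon and junction events and 1346 introns. A crossed pairing, chosen after seeing the data, called 1175 genes and 2 members. The cause of these changes was not tested.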
